A study of Rattus norvegicus with 6 samples.

Results

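The Notch receptors Notch1, Notch2 and Notch3, the ligands Dll1, Dll3, Jag1 and Jag2 and the fringe enzymes Lfng, Mfng and Rfng were chosen by gene symbol. All 10 were found among the 37991 genes of the deposited table. The RNA-seq libraries came from SD rat cultures of the oligodendrocyte lineage, whose mature cells make the myelin of the central nervous system. The differentiated group held 3 libraries of cells after a change of growth factors in Raff medium, and the precursor group held 3 libraries of cells grown in that medium before differentiation. Both groups carry the replicate numbers 1, 2 and 5. The titles give day 3 and day 0 for numbers 1 and 2, and the same figures without the word day for number 5. No label describes a transgene, a sort or the age of the animals, or says whether replicates were separate cultures, so a p-value here reads against the spread of these libraries alone, and that spread may be technical.

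Notch signalling passes between touching cells. A ligand of the Delta-like or Jagged type on one cell binds a Notch receptor on another, proteases free the receptor's intracellular part, and this joins the DNA-binding protein Rbpj to switch on target genes such as Hes1 and Hes5. Fringes are Golgi enzymes that lengthen O-fucose sugars on the receptor's EGF-like repeats and so change which ligands activate it. In oligodendrocyte precursors, the Jag1 to Notch1 route to Hes5 is known to hold back maturation.

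Of these 10 genes, Mfng (manic fringe) rose, to a mean 6.31 times that of precursor cultures. The other 9 missed the threshold in the fit of all libraries without the replicate block, and with the block 5 of them, Notch2, Notch3, Jag2, Dll1 and Dll3, were called higher. The fit with the block called 30.6% of all genes tested, 14.9% of them as higher, against 8.86% called without it. Jag2 averaged 3.55 times and Dll3 2.12 times the precursor level, without overlap between groups, and Notch1 averaged 0.974 times. The share of all genes without such overlap was not counted, so overlap is a description only, here and below. Among genes that Notch activates, Hes5 rose in both fits, Nrarp passed with the block alone, and Hes1, Hey1 and Hey2 passed in neither. The RNA of each library is bulk RNA of a culture, so fewer cells of a type and less RNA per cell cannot be told apart.

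Total counts per library ran from 55522101 to 79898629. Levels are given as CPM, reads of a gene relative to the library's total, after TMM scaling (trimmed mean of M values). Before that scaling, 1 CPM rested on 55.5 reads in the smallest library. Groups were compared with edgeR's quasi-likelihood test over 17797 genes, and a gene was called at a Benjamini-Hochberg adjusted p under 0.05. All 10 genes passed the low-count filter. Among all these genes 8.86% were called, with 1005 genes (5.65%) higher in differentiated cells and 571 lower. With library size alone as the scaling the split was 678 higher and 1006 lower, and the median log2 fold change over all genes was -0.19 in place of -0.04. With the replicate number as a block the background was 30.6%. It was 16.1% by DESeq2, 17.0% without both libraries numbered 1, 33.2% without these and with the block, and 8.34% without precursor 1. The labelled cell types were checked against markers. All 8 oligodendrocyte markers rose, to a summed level of 18700 to 22100 CPM in differentiated libraries, against 1430 to 2250 CPM in precursor libraries. None of 8 precursor markers, Pdgfra and Cspg4 among them, was called without the block, and with it 4 were higher and 3 lower. Their summed level was 1030 to 1370 CPM in differentiated libraries and 956 to 1730 CPM in precursor libraries.

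Promoter sequence is shown for Dll1 and Lfng, the 2 of 9 genes with an entry that held the core of the site read by Rbpj, and for the target Hes5. Mfng had no entry. The letters searched were TGGGAA on both strands, in the 250 bases before each start site, from RefSeq promoters of the rat build GRCr8. Of 33469 promoters of that length, 22.1% held TGGGAA, and 5.27% held the longer GTGGGAA, which contains it. Capitals mark TGGGAA or its reverse complement TTCCCA. Dll1 is at chr1:64993275-64993524 (minus strand), Lfng at chr12:19152919-19153168 (minus strand) and Hes5 at chr5:170804327-170804576 (plus strand).
Dll1: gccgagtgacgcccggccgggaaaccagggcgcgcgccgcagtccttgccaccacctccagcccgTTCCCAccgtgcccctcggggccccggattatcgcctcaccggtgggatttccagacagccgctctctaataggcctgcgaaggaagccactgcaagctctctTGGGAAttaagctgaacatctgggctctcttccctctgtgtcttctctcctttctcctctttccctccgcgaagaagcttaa
Lfng: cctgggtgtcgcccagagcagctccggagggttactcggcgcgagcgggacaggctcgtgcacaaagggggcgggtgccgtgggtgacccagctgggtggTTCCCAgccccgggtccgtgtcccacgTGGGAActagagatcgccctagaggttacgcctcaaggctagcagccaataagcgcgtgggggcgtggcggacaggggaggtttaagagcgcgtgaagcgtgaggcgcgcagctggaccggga
Hes5: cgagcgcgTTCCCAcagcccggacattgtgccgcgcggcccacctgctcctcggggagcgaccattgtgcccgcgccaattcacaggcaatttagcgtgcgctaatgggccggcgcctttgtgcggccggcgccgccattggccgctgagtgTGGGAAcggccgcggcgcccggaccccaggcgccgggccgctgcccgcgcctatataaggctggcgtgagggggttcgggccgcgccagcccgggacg
Each of the 3 windows held the letters at 2 places, and at 1 or more of them as GTGGGAA. Of other targets, not shown, the Hes1 and Hey2 windows also held the letters at 2 places each, and the Nrarp window at 0. A match of letters is a description and not a bound site.

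**Figure D1:**
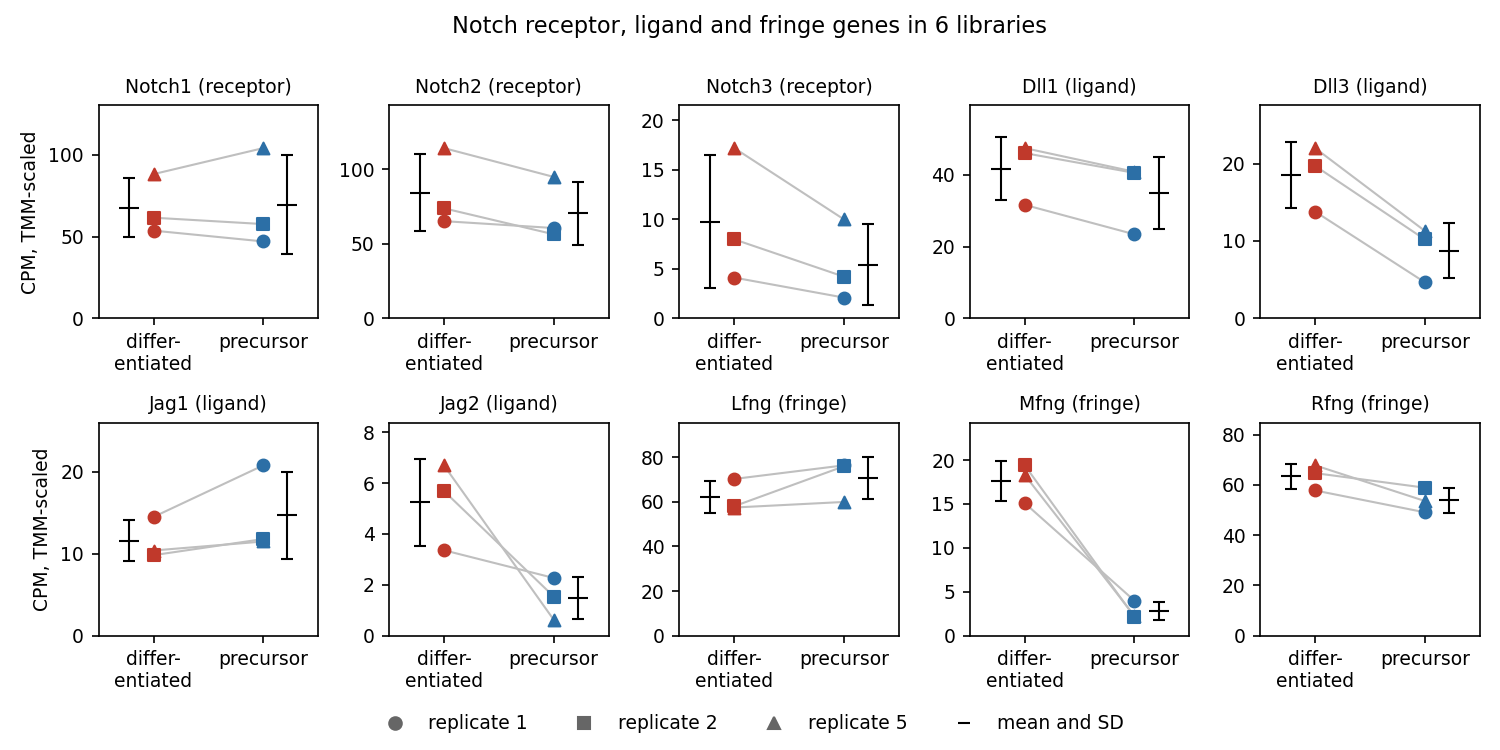
TMM-scaled CPM (vertical axis, from 0) of the 10 genes in differentiated libraries (red, left) and precursor libraries (blue, right), with grey lines joining libraries of the same replicate number and black bars for mean and SD of 3 libraries. The groups of Mfng, Jag2 and Dll3 do not overlap, while Notch1, Notch2 and Notch3 are highest in the replicate 5 library of each group.

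The receptors Notch1 (25496) and Notch2 (29492), broadly expressed in neural cells, were not called in the fit without the block. Notch1 was at 53.6, 61.5 and 88.1 CPM in differentiated 1, 2 and 5, against 47.0, 57.6 and 104 CPM in precursor 1, 2 and 5. The groups overlapped, and the log2 fold change was -0.04 (SE 0.32, edgeR adjusted p = 0.963). Its sign differed between same-numbered pairs, with differentiated higher in 2 and lower in 1. Without precursor 5 the log2 fold change of Notch1 was 0.37, and without differentiated 5 it was -0.27.

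Notch2 was at 65.1, 73.7 and 114 CPM in differentiated 1, 2 and 5, against 60.5, 56.3 and 94.7 CPM in precursor 1, 2 and 5. Differentiated was the higher library in 3 of 3 pairs, by 1.08 to 1.31 times, while the groups overlapped. The log2 fold change of 0.26 (SE 0.27) did not pass (edgeR adjusted p = 0.642), and with the replicate block it was 0.25 (SE 0.08, edgeR adjusted p = 0.0495). Without differentiated 5 it was -0.02, and on the log2(TPM + 1) scale -0.01, so the direction of Notch2 depended on that library and on the scaling. The median over all genes on the log2(TPM + 1) scale was -0.17.

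Notch3 (56761), a receptor best known from the mural cells of blood vessels, was the lowest of the 3 receptors. It was at 4.12, 7.98 and 17.2 CPM in differentiated 1, 2 and 5, against 2.1, 4.21 and 9.99 CPM in precursor 1, 2 and 5. The level differed more between replicates of a group than between groups, and the ratio within pairs lay between 1.73 and 1.96. Its log2 fold change was 0.85 (SE 0.67, edgeR adjusted p = 0.513) without the block and 0.89 (SE 0.13, edgeR adjusted p = 0.00416) with it. Without differentiated 5 it was 0.15, and without precursor 5 it was 1.63.

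Markers of mural cells and fibroblasts were read beside Notch3. The summed level of 11 such genes was 259 to 336 CPM in differentiated libraries and 97.1 to 130 CPM in precursor libraries. The actin-binding gene Tagln, also expressed outside mural cells, made up most of it, at 216 to 319 CPM in differentiated and 73.0 to 89.6 CPM in precursor libraries. The defining pericyte genes Rgs5 and Higd1b had 0 reads in all 6 libraries. Pdgfrb, the receptor that marks mural cells, averaged 10.8 ± 1.55 CPM in differentiated and 5.24 ± 0.986 CPM in precursor cells and was called higher (log2 fold change 1.04, edgeR adjusted p = 0.0265). Without the block Tagln and Pdgfrb were called higher and none lower. With it the same genes were higher, and 3 of the list, Col1a1, Dcn and Lum, were lower. Of the other tested genes, Myh11 and Kcnj8 were lower in 3 of 3 pairs, Acta2 was below 1 CPM in each library, and none was called in either fit. The part of cells with these markers in the Notch3 values was not tested.

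Among the ligands, Dll1 (84010) is the Delta-like gene that activates Notch on neighbouring cells. It was at 31.6, 46.0 and 47.4 CPM in differentiated 1, 2 and 5, against 23.4, 40.5 and 40.8 CPM in precursor 1, 2 and 5. Replicate 1 was the low library in each group, and the groups overlapped. The log2 fold change of 0.26 (SE 0.25) did not pass (edgeR adjusted p = 0.616), and with the block it was 0.28 (SE 0.08, edgeR adjusted p = 0.0482). The value was 0.03 without precursor 1. Without both libraries numbered 1 and with the block, Dll1 was not called (0.21, edgeR adjusted p = 0.0927).

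Dll3 (114125), a divergent Delta-like protein that in mouse stays largely inside the cell and does not activate Notch on neighbours, was higher in each differentiated library than in any precursor library. It was at 13.8, 19.7 and 22.0 CPM in differentiated 1, 2 and 5, against 4.66, 10.2 and 11.3 CPM in precursor 1, 2 and 5. Its log2 fold change of 1.08 (SE 0.35) did not pass (edgeR adjusted p = 0.114). With the replicate block it passed at 1.15 (SE 0.15, edgeR adjusted p = 0.00274). It passed as well without both libraries numbered 1 (0.96, edgeR adjusted p = 0.00762) and by DESeq2 (adjusted p = 0.0261). Of the 16 alternative fits, 4 called Dll3. It missed in each fit that left out 1 library (edgeR adjusted p = 0.0884 to 0.311) and with library size alone (edgeR adjusted p = 0.197). On the log2(TPM + 1) scale it missed too (limma adjusted p = 0.262).

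Jag1 (29146), the Jagged ligand known on axons as a brake on precursor maturation, was the ligand with lower values in differentiated cells. It was at 14.5, 9.83 and 10.4 CPM in differentiated 1, 2 and 5, against 20.8, 11.8 and 11.5 CPM in precursor 1, 2 and 5. Replicate 1 was the high library in each group, and differentiated was lower in 3 of 3 pairs. The log2 fold change of -0.34 (SE 0.28) did not pass without the block (edgeR adjusted p = 0.534) or with it (-0.31, edgeR adjusted p = 0.0996). Without precursor 1 it was -0.03.

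Jag2 (29147), the other Jagged ligand, rested on 241, 367 and 368 reads in differentiated 1, 2 and 5, against 145, 110 and 45 reads in precursor 1, 2 and 5. That is 3.36, 5.69 and 6.70 CPM in differentiated libraries, against 2.27, 1.54 and 0.625 CPM in precursor libraries. The groups did not overlap, but the size differed between pairs, at 1.48, 3.70 and 10.7 times for numbers 1, 2 and 5. The log2 fold change of 1.83 (SE 0.50) missed the threshold at an edgeR adjusted p of 0.0697. It passed with the replicate block (1.91, SE 0.52, edgeR adjusted p = 0.0355), by DESeq2 (adjusted p = 0.00496), without both libraries numbered 1 (2.52, edgeR adjusted p = 0.00951) and without precursor 1 (2.27, edgeR adjusted p = 0.0404). Of the 16 alternative fits, 5 called Jag2. Among those that missed were the fits without differentiated 2, differentiated 5 or precursor 2 (edgeR adjusted p = 0.209, 0.213 and 0.19).

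The fringes had the highest summed TPM of the 3 families, and 1 of the 3 was called. Mfng (315119), which like Lfng is known in mammalian cells to favour Delta-like over Jagged ligands, had 1082, 1252 and 1004 reads in differentiated 1, 2 and 5. It had 254, 153 and 161 reads in precursor 1, 2 and 5. On the scaled level this was 15.1, 19.4 and 18.3 CPM in differentiated libraries, against 3.98, 2.14 and 2.24 CPM in precursor libraries. The lowest differentiated library was thus well above the highest precursor library. Mean levels were 17.6 ± 2.24 CPM in differentiated and 2.79 ± 1.04 CPM in precursor cells (SD, n = 3 each). The log2 fold change was 2.66 (SE 0.29, edgeR adjusted p = 0.00225), and differentiated was higher in 3 of 3 pairs. Mfng was called in each of 16 alternative fits, with a highest adjusted p of 0.0182 and log2 fold changes of 1.94 to 3.11. It is 1 gene called of 10, a share near the 8.86% of all genes.

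Lfng (170905), lunatic fringe, itself a gene that Notch switches on in the embryo's segmenting mesoderm, was not called. It was at 70.2, 58.0 and 57.4 CPM in differentiated 1, 2 and 5, against 76.3, 75.9 and 59.9 CPM in precursor 1, 2 and 5. Differentiated was lower in 3 of 3 pairs, by a log2 fold change of -0.19 (SE 0.14) that did not pass without the block (edgeR adjusted p = 0.487) or with it (edgeR adjusted p = 0.145). In the authors' TPM the Lfng groups did not overlap, at 25.7 to 28.0 TPM in differentiated and 34.8 to 39.5 TPM in precursor cells. On the log2(TPM + 1) scale its log2 fold change was -0.42, beside a median of -0.17 over all genes on that scale.

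Rfng (60433), radical fringe, known to favour both kinds of ligand, was at 57.8, 64.7 and 67.8 CPM in differentiated 1, 2 and 5, against 49.1, 58.9 and 53.6 CPM in precursor 1, 2 and 5. Differentiated was higher in 3 of 3 pairs, by 1.10 to 1.26 times, and the groups overlapped. The log2 fold change was 0.23 (SE 0.12, edgeR adjusted p = 0.300), and with the block 0.24 (SE 0.07, edgeR adjusted p = 0.0513). It was -0.02 on the log2(TPM + 1) scale, so its sign depended on the scaling. The median over all genes on that scale was -0.17. Without both libraries numbered 1 and with the block, Rfng was called higher (0.24, edgeR adjusted p = 0.0484).

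**Figure D2:**
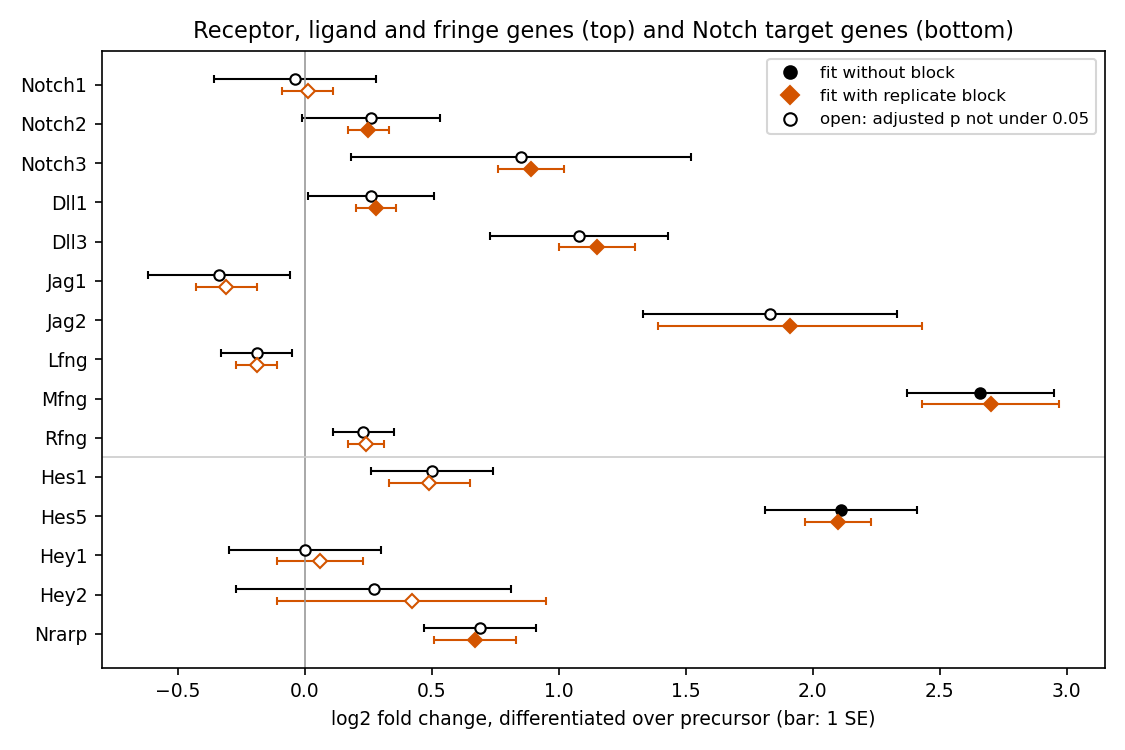
Log2 fold change (horizontal axis, differentiated over precursor) with 1 SE, for the 10 genes and 5 Notch target genes, from the fit without the replicate block (black circles) and with it (orange diamonds), filled where the adjusted p was under 0.05. Mfng and Hes5 are filled in both fits, and Notch2, Notch3, Dll1, Dll3, Jag2 and Nrarp in the fit with the block.

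With the replicate block 6 of the 10 genes were called, all higher in differentiated cells: Mfng, Dll3, Notch3, Jag2, Dll1 and Notch2. The background of that fit was 30.6% in either direction and 14.9% higher. In that fit the median log2 fold change of the 10 genes was 0.26, beside -0.03 over all genes tested, and 8 of the 10 values were positive. Without the block the medians were 0.26 and -0.04, and 7 of the 10 values were positive. The call of Notch2 and that of Dll1 lay just under the threshold, and Rfng lay just over it.

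Levels of different genes were compared per transcript length, in the authors' TPM, and within a library. Lfng or Rfng was the highest of the 10 genes in each of the 6 libraries, and Dll1 came next after them in each. Rfng averaged 36.4 ± 8.04 TPM in differentiated and 37.2 ± 8.66 TPM in precursor cells (SD, n = 3 each). Lfng averaged 27.1 ± 1.22 and 36.8 ± 2.44 TPM in the same groups, and the 2 fringes did not differ beyond their spread in precursors. Dll1 followed at 13.1 ± 4.08 TPM in differentiated and 13.3 ± 5.47 TPM in precursor cells.

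Mfng averaged 9.58 ± 2.2 TPM in differentiated and 1.74 ± 0.381 TPM in precursor cells. It was the fourth highest of the 10 genes in differentiated 1 and 2 and the sixth in differentiated 5. In precursors it was no higher than the eighth. In differentiated cells Dll3 at 8.95 ± 3.0, Notch2 at 7.70 ± 3.19 and Notch1 at 7.05 ± 2.64 TPM had ranges that overlapped that of Mfng. In precursors Notch1 was at 8.96 ± 5.42, Notch2 at 7.83 ± 3.69 and Dll3 at 5.19 ± 2.75 TPM, with ranges that overlapped one another and lay above that of Mfng. Jag1 at 1.96 ± 0.209 and 2.94 ± 0.607, Notch3 at 1.35 ± 1.04 and 0.932 ± 0.830, and Jag2 at 1.07 ± 0.455 and 0.327 ± 0.141 TPM were the lowest genes in differentiated and precursor cells, joined in precursors by Mfng.

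**Figure D3:**
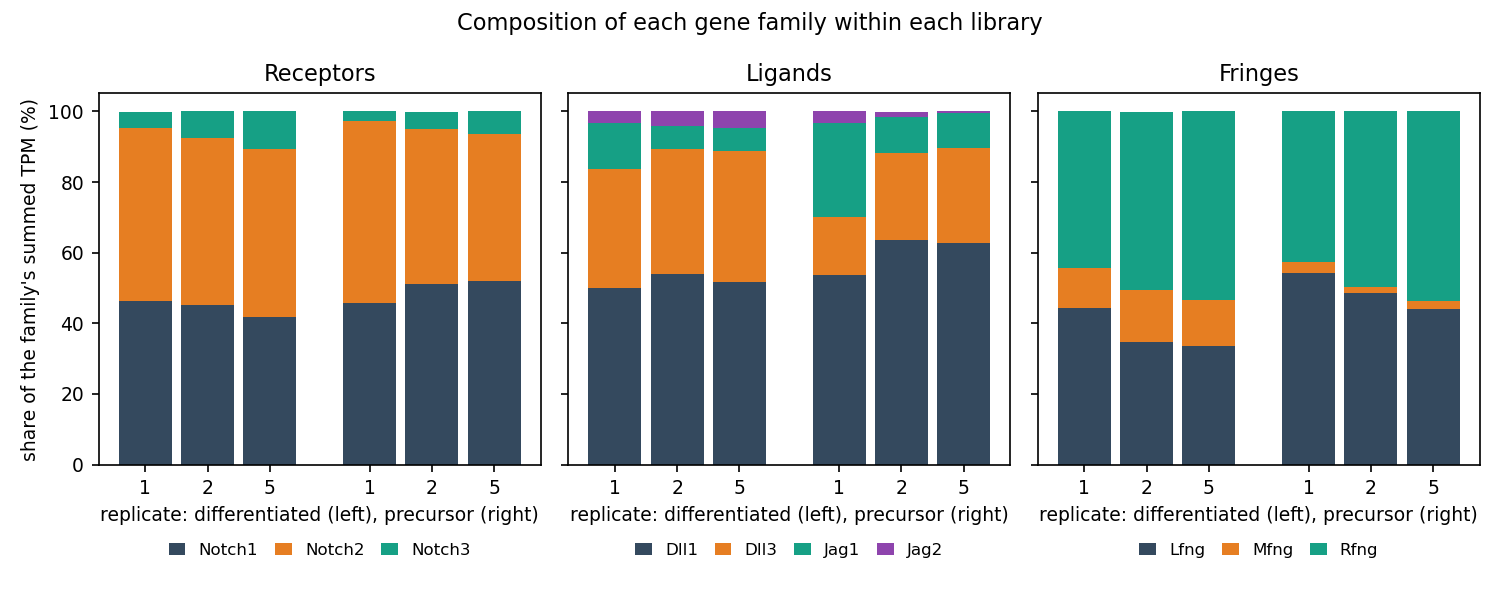
Share of each gene in the summed TPM of its family (vertical axis, percent) in each library, with differentiated libraries at the left of each panel and precursor libraries at the right. The Mfng share is 11.2% to 14.6% in differentiated and 1.69% to 3.31% in precursor libraries, and the Dll3 share is also higher in each differentiated library.

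Within the fringe family, Mfng made up 13.0% ± 1.74 of the summed TPM in differentiated and 2.37% ± 0.842 in precursor cells (SD, n = 3 each). The share of Lfng was 37.6% ± 5.92 in differentiated and 49.0% ± 5.01 in precursor cells, and that of Rfng was 49.4% ± 4.53 and 48.7% ± 5.66. The ratio of Mfng to Lfng was 0.252, 0.420 and 0.394 in differentiated 1, 2 and 5, against 0.0612, 0.0346 and 0.0478 in precursor 1, 2 and 5. The ratio lies within a library, so it does not depend on scaling between libraries.

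Among ligands, Dll3 made up 35.4% ± 1.73 of the summed TPM in differentiated and 22.6% ± 5.48 in precursor cells. Dll1 made up 51.9% ± 1.94 and 60.0% ± 5.47, Jag1 8.52% ± 3.71 and 15.6% ± 9.53, and Jag2 4.16% ± 0.657 and 1.83% ± 1.38 in the same groups. The ratio of Dll3 to Dll1 was 0.673, 0.656 and 0.717 in differentiated 1, 2 and 5, against 0.305, 0.387 and 0.426 in precursor 1, 2 and 5, with no overlap. Both Delta-like genes together thus exceeded both Jagged genes in each library. The receptor family was shared between Notch1, at 44.4% ± 2.2 in differentiated and 49.7% ± 3.40 in precursor cells, and Notch2, at 48.1% ± 1.04 and 45.7% ± 5.24. Notch3 made up 7.55% ± 3.0 in differentiated and 4.62% ± 1.91 in precursor cells, and these ranges overlapped.

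Genes that Notch is known to activate were read next, while Notch activity itself was not measured. Of 10 listed, 7 passed the low-count filter. Without the block 1 was higher and 0 lower, which is 14.3% beside 8.86% of all genes. With it 2 were higher and 1 lower, which is 42.9% beside 30.6%. With so few genes these shares are a description only. Hes2, Hes3 and Heyl had at most 18 reads in a library and were not tested. Hes5 (79225), the transcriptional repressor whose promoter is shown above, was at 11.6, 17.8 and 21.4 CPM in differentiated 1, 2 and 5, against 2.78, 4.58 and 4.39 CPM in precursor 1, 2 and 5. Its log2 fold change was 2.11 (SE 0.30, edgeR adjusted p = 0.00638), without overlap between groups, and it was called in each of the 16 alternative fits.

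Hes1 (29577), the related repressor, was at 5.10, 7.69 and 7.79 CPM in differentiated 1, 2 and 5, against 4.27, 5.41 and 4.82 CPM in precursor 1, 2 and 5. The groups overlapped, and the log2 fold change of 0.50 (SE 0.24) did not pass (edgeR adjusted p = 0.258). Nrarp (499745), a feedback inhibitor of Notch, was at 6.80, 9.11 and 10.5 CPM in differentiated 1, 2 and 5, against 5.40, 4.92 and 6.08 CPM in precursor 1, 2 and 5. Its groups did not overlap, and its log2 fold change of 0.69 (SE 0.22, edgeR adjusted p = 0.112) passed with the block at 0.67 (SE 0.16, edgeR adjusted p = 0.0241).

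Fabp7, a brain fatty acid binding protein, averaged 823 ± 134 CPM in differentiated and 982 ± 155 CPM in precursor cells. The difference, a log2 fold change of -0.25 without the block (edgeR adjusted p = 0.417), passed with it at -0.26 (SE 0.06, edgeR adjusted p = 0.0164), and differentiated was lower in 3 of 3 pairs. Neither of the Hey repressors passed the test. Hey1 (155437) averaged 15.2 ± 2.39 CPM in differentiated and 15.2 ± 5.73 CPM in precursor cells, with a log2 fold change of 0.00 (SE 0.30, edgeR adjusted p = 0.999). Hey2 (155430) averaged 2.73 ± 0.792 CPM in differentiated and 2.26 ± 1.30 CPM in precursor cells, at a log2 fold change of 0.27 (SE 0.54, edgeR adjusted p = 0.820). Hes6 (316626), which antagonises Hes1, was at 72.1 ± 8.36 CPM in differentiated and 57.9 ± 5.36 CPM in precursor cells. Its log2 fold change of 0.32 (SE 0.13, edgeR adjusted p = 0.200) passed with the block (0.31, SE 0.07, edgeR adjusted p = 0.0173).

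Astrocytes also use Notch receptors and Hes5. The summed level of 8 astrocyte markers was 7040 to 7300 CPM in differentiated and 4020 to 5620 CPM in precursor libraries. Of the 7 that could be tested, 2 were called higher without the block and 6 with it, none was called lower in either fit, and Gjb6 had 0 reads in some libraries. Markers of dividing cells summed to 486 to 542 CPM in differentiated and 808 to 975 CPM in precursor libraries, with 5 of 6 called lower without the block and 6 of 6 with it. The part of these cells in the values of Mfng, Hes5 and the other Notch genes was not tested.

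**Figure D4:**
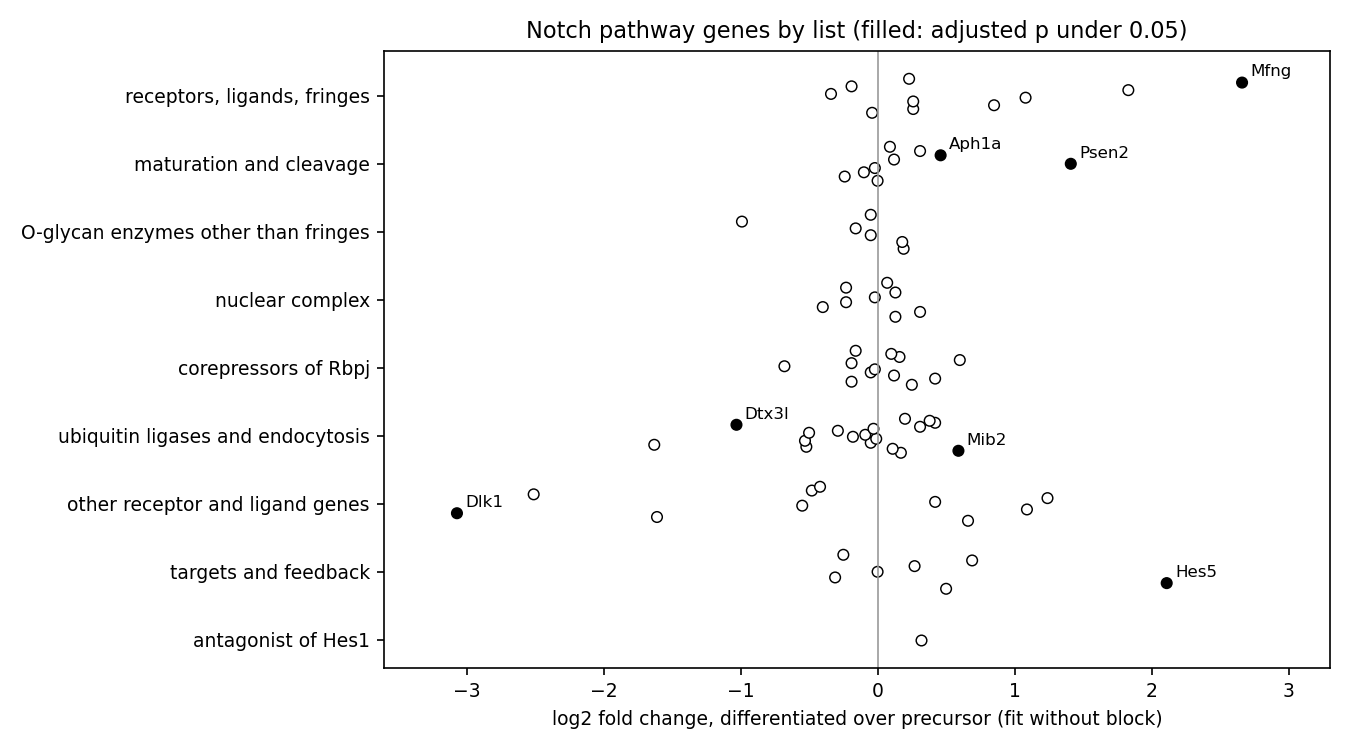
Log2 fold change (horizontal axis, differentiated over precursor, fit without the block) of the 10 genes and of the tested genes of 8 pathway lists, 1 point per gene, filled and named where the adjusted p was under 0.05. Most points lie near 0, and the called genes are Mfng, Psen2, Aph1a, Mib2 and Hes5 to the right and Dtx3l and Dlk1 to the left.

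Other Notch pathway genes were counted in 8 lists of 75 genes, of which 71 were tested. Of these, 4 were higher and 2 lower, which is 8.45% beside 8.86% of all genes, and their median log2 fold change was -0.01. With the block 14 were higher and 9 lower, which is 32.4% beside 30.6%. The called share was thus near the background in both fits.

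Receptor maturation and cleavage had 2 of 9 genes higher and 0 lower (median log2 fold change 0.09). Psen2 (81751), a presenilin that forms the catalytic core of gamma-secretase, was at 45.5, 49.7 and 49.9 CPM in differentiated 1, 2 and 5, against 21.3, 17.9 and 15.2 CPM in precursor 1, 2 and 5. Its log2 fold change was 1.41 (SE 0.15, edgeR adjusted p = 0.00211), and it was called in each of the 16 alternative fits.

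Aph1a (365872), another gamma-secretase subunit, was at 166 ± 12.3 CPM in differentiated and 121 ± 4.36 CPM in precursor cells. It was called higher at a log2 fold change of 0.46 (SE 0.10, edgeR adjusted p = 0.0341). That call did not hold in 5 of the 6 fits that left out 1 library, all but that without precursor 1, with an adjusted p of up to 0.116. It also did not hold on the TPM scale or when libraries were scaled by size alone.

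Of 18 ubiquitin ligase and endocytosis genes, 1 was higher and 1 lower (median log2 fold change -0.04). Mib2 (474147), a ligase that acts on Notch ligands, was at 72.4 ± 6.24 CPM in differentiated and 48.1 ± 5.72 CPM in precursor cells. It was called higher at a log2 fold change of 0.59 (SE 0.13, edgeR adjusted p = 0.0351). This call was lost in each fit that left out 1 library, with an adjusted p of up to 0.134, and with library size alone. It was also lost on the log2(TPM + 1) scale (log2 fold change 0.29, limma adjusted p = 0.499). Dtx3l (498089), a Deltex family ligase also known from DNA repair, was at 12.2 ± 1.52 CPM in differentiated and 25.0 ± 4.33 CPM in precursor cells. It was called lower at a log2 fold change of -1.03 (SE 0.18, edgeR adjusted p = 0.0155). That call was lost without differentiated 2, differentiated 5 or precursor 5 (adjusted p up to 0.0736).

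Of 10 tested receptor and ligand genes outside the 10 described, which include atypical ligands, 0 were higher and 1 lower (median log2 fold change -0.45). Dlk1 (114587), a Delta-like membrane protein without the domain that activates Notch, had 21, 49 and 26 reads in differentiated 1, 2 and 5, against 105, 456 and 348 reads in precursor 1, 2 and 5. Its log2 fold change was -3.07 (SE 0.60, edgeR adjusted p = 0.0220), and the call was lost without any single library but precursor 1 (adjusted p up to 0.0991). The endothelial genes Notch4 and Dll4 were low, at 3.08 ± 0.398 and 0.167 ± 0.122 CPM in differentiated and 1.95 ± 0.729 and 0.507 ± 0.239 CPM in precursor cells, and neither passed (edgeR adjusted p = 0.295 and 0.357). The summed level of 8 endothelial markers was 18.7 to 33.8 CPM in differentiated and 15.9 to 45.9 CPM in precursor libraries, and none was called in either fit. Flt1 made up most of it, while Cldn5 and Emcn had 0 reads in all libraries.

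No gene of the remaining lists was called in the fit of all libraries with TMM scaling and no block. These were 6 O-glycan enzymes other than fringes (median log2 fold change -0.05), 8 genes of the Rbpj complex (0.02) and 12 corepressors of Rbpj (0.04). The gene with the smallest p in each was Poglut1, an O-glucosyltransferase (log2 fold change 0.18, SE 0.10, edgeR adjusted p = 0.315), Maml2, a coactivator (-0.40, SE 0.31, edgeR adjusted p = 0.507), and Ctbp2, a corepressor (-0.68, SE 0.21, edgeR adjusted p = 0.0990). With the block Maml2 (edgeR adjusted p = 0.0329) and Ctbp2 (edgeR adjusted p = 0.00415) were called lower, and the counts were 0 of 6, 1 of 8 and 3 of 12. Ctbp2 was also called lower in 6 fits without the block, among them DESeq2 (adjusted p = 0.0191), library size alone (edgeR adjusted p = 0.0353) and the fit without differentiated 1 (edgeR adjusted p = 0.0426). Tle1, another corepressor, was called higher without differentiated 1 and without both libraries numbered 1. The DNA-binding partner Rbpj itself was at 89.3 CPM in differentiated and 81.4 CPM in precursor cells, with a log2 fold change of 0.13 (SE 0.14, edgeR adjusted p = 0.649).

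The genes with the most similar profile over the 6 libraries were sought among 9875 genes with a mean of at least 10 CPM, for each of the 6 genes called in either fit. The measure was the root mean square difference between centred log2 CPM values, and all profiles share the same libraries. The nearest to Mfng was Rapgef5 (0.107), followed by LOC102551716 (0.157) and Dbndd2 (0.164). All 3 were called higher, which follows from the measure, as it selects profiles like that of the called gene Mfng. The nearest to Dll3 were Sox10 (0.117), the lineage transcription factor, Kank1 (0.136) and Kifc3 (0.137). Without the block Sox10 was not called (edgeR adjusted p = 0.14), while Kank1 and Kifc3 were called higher (edgeR adjusted p = 0.0373 and 0.0375). For Jag2 the nearest were Zdhhc14 (0.374), Eml2 (0.397) and Acadsb (0.432), at larger differences.

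For genes whose level differed mainly between replicate numbers, the measure itself selects profiles of that kind. Those nearest to Notch2 were Zzef1 (0.0537), Lrp1 (0.0613) and Srebf2 (0.0655), and none of these was called without the block. Those nearest to Notch3 were Igfbp5 (0.228), Samd4b (0.274) and Hectd4 (0.370). Those nearest to Dll1 were Ap3b2 (0.0545), Susd4 (0.0585) and Farp2 (0.0626). Over 6 libraries such likeness describes these samples and says nothing of shared control.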

How the data were processed

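The submitters' processing notes name StringTie 2.1.3b, HISAT2 2.1.0, Trimmomatic 0.38 and bcl2fastq 2.20.0, and the human build GRCh38. Which rat build and annotation were used, and whether counting used strand, is not given in the sources used here. Reads of overlapping or antisense genes therefore cannot be told apart. Libraries came from a stranded total RNA kit, per the labels' protocols. The authors deposited whole read counts, FPKM and TPM for each gene and library. The deposited read counts are not normalized and were tested. The deposited FPKM scale reads by length and depth, and gave transcript lengths for 1 alternative. The deposited TPM are scaled to a fixed total per library, of which the small RNA Rn7sl1 takes a varying part (5.93% to 12.5% of the counts).

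Counts were fitted with edgeR 4.0.16 in R 4.3.3 (filterByExpr, TMM, robust quasi-likelihood), with Benjamini-Hochberg adjustment over 17797 genes. The SE is the log2 fold change divided by the square root of F. The script was tested on simulated data. Alternatives were the replicate block, DESeq2 1.42.0 and its size factors, library size alone, 2 other filters, limma 3.58.1 on log2(TPM + 1) and log2(TPM + 0.1), leaving out each library, and leaving out both libraries numbered 1. The last of these with the block was added after seeing the data. Deviations of same-numbered libraries from their group means correlated across genes at 0.421, 0.197 and 0.272 for numbers 1, 2 and 5, each over 0.1. Those of differently numbered libraries ran from -0.308 to 0.105. Differentiated 2 with precursor 5, at 0.105, was thus over 0.1 as well, and differentiated 5 with precursor 2 was at 0.0987. The numbers were therefore taken to pair the samples in the fit with the block, a pairing that comes from the titles and this check and that no label states. The fit without the block follows the labels, which give 1 comparison of groups, and leaves this pairing out. The check is weak with 3 libraries a group.

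The 10 genes, the pathway lists and the marker lists were chosen with earlier results of these data known. All 10 genes are named. Outside them, Hes1, Hes5, Hey1, Hey2 and Nrarp are named always, and of other lists up to 4 called genes by size or, with none called, the one with the smallest p. Rbpj, Notch4, Dll4, Fabp7, Pdgfrb and Tle1 were named after their values were seen. The same holds for the markers Acta2, Col1a1, Dcn, Kcnj8, Lum and Myh11. The gene listed as Ccn3 stands in the deposited table under an older symbol. Promoter windows exclude the bases after the start site.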

Additional observations from a re-analysis of the deposited data

How the results depend on the processing

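With the replicate block, the paired fit, 5440 of all genes, 6 of the 10 receptor, ligand and fringe genes and 23 pathway genes were called, in place of 1576, 1 and 6. DESeq2 called 2756, 3 and 10, the fit without both libraries numbered 1 called 3021, 3 and 12, and that fit with the replicate block 5908, 6 and 30. In the last, Rfng was called and Dll1 was not. In the fits that left out 1 library the counts ran from 618 to 1490 for all genes, from 1 to 2 for the 10 genes and from 2 to 7 for the pathway genes. The count of all genes was 618 without differentiated 2, 678 without differentiated 5, 676 without precursor 2 and 905 without precursor 5. The count of 2 was without precursor 1, where Jag2 joined Mfng. Pathway counts were 2 without differentiated 2, differentiated 5 or precursor 5, and 3 without precursor 2. Direction was checked for the 10 genes and the pathway genes named by rule. Of those called without the block in the fit of all libraries, none changed direction in any alternative. Notch2, called with the block, was at -0.02 without differentiated 5 and at -0.01 on both TPM scales. The medians over all genes were -0.17 on log2(TPM + 1) and -0.26 on log2(TPM + 0.1). The Mfng share of fringe TPM in differentiated cells was 13.1% from TMM-scaled reads per kilobase, against 13.0% from TPM. Scaling between libraries cancels in such a share, so only the transcript length used could make these values differ. Over the 10 genes and the pathway genes named by rule, 328 values kept their side of the threshold. Another 31 moved past it and 25 fell short of it, and the cause was not tested. The low read counts of Jag2 and Dlk1 limit their precision.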
